A study of Canis lupus familiaris with 89 samples.

Results

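The genes described here are 10 genes of endoplasmic reticulum (ER) stress and protein folding, measured in the mammary gland of dogs. They are HSPA5, HSP90B1, DNAJC3, PDIA4, CRELD2, UGGT1, SEL1L, HERPUD1, EIF2AK3 and ATF4. They were taken by name, each as a column of the authors' series-wide table of scores and as the row of the count tables paired with that column. The rule itself uses no measured value, but the genes were named with earlier results of these data known. All 10 passed the filter on low counts and stood among the 16806 gene rows tested.

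Polyadenylated RNA had been sequenced from 89 mammary samples of 16 dogs of various breeds, and every dog gave libraries to all 3 tissue classes. The malignant class held 22 libraries, of 15 carcinomas, 4 mixed carcinomas and 3 carcinomas in situ. The benign class, which the series design text calls pre-malignant, held 41 libraries, of 23 adenomas and 18 complex adenomas (in which myoepithelial as well as luminal cells proliferate). The normal class held 26 libraries, of 14 lobular hyperplasias, 6 ectatic ducts (duct ectasia), 4 atypias and 2 samples called normal, so that it consisted mostly of non-neoplastic lesions from dogs that also bore tumors.

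The ER is where secreted and membrane proteins are folded, given sugar chains and inspected before export. When unfolded protein builds up there, the sensors IRE1, ATF6 and PERK start the unfolded protein response, which raises chaperones and degradation factors, slows translation and lets the transcription factor ATF4 be made. The mammary gland depends on this machinery for milk proteins. The roles given for single genes below are known mainly from human and mouse cells.

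Reads assigned to genes ranged between 6.09 and 68.4 M per library, with a mean and SD of 40.02 ± 12.1 M for the malignant, 35.2 ± 13.6 M for the benign and 34.6 ± 13.5 M for the normal class. The epithelial genes KRT18, KRT19, EPCAM, KRT5 and KRT14 had reads in all 89 libraries. CSN3, a milk casein gene, had no read in 2 normal libraries, and CKM, the creatine kinase of skeletal muscle, had none in 4 malignant, 14 benign and 3 normal libraries. Levels below are CPM (read counts scaled to the same total of gene reads) with TMM-scaled library sizes. Genes were compared within dogs with edgeR's quasi-likelihood test and called where p, adjusted by Benjamini-Hochberg over all gene rows, was under 0.05. In such bulk tissue, fewer cells of a type and less RNA per cell cannot be told apart.

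Most calls came from the benign tumors, and the ranges of the 3 classes overlapped for all 10 genes. Against normal tissue of the same dogs, 4 of the 10 genes rose in benign tumors (UGGT1, DNAJC3, SEL1L and HSPA5) and 1 fell (ATF4). Over all gene rows, 11.9% were called in that comparison, 6.45% as higher and 5.46% as lower. With the RNA integrity number or an adipocyte marker score as a covariate, 0 of the 10 genes were called there, and the values are given further on. The median log2 fold change of the 10 genes was 0.28, beside -0.0034 for all 16806 gene rows. In malignant against normal libraries 0 of the 10 genes were called, where 7.3% of all gene rows were (4.42% as higher, 2.88% as lower), although 4 of the 10, and 3944 of all 16806 gene rows, had an unadjusted p under 0.05. DESeq2 called 3 there (SEL1L and UGGT1 as higher, HERPUD1 as lower) and limma-voom with dog as a random effect called 2. Leaving out 1 dog gave 3 calls without dog 82, 2 without dog 1 or 59, and 1 without dog 18, 29 or 54. The median of the 10 genes was 0.16, beside 0.0029 for all gene rows. In malignant against benign tumors 1 gene, HERPUD1, fell, with 0.91% of all gene rows called (0.643% as lower). The median was -0.11 there, beside 0.0093. The comparisons with normal tissue share the normal libraries, so their values stand side by side and are not independent of each other.

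**Figure D1:**
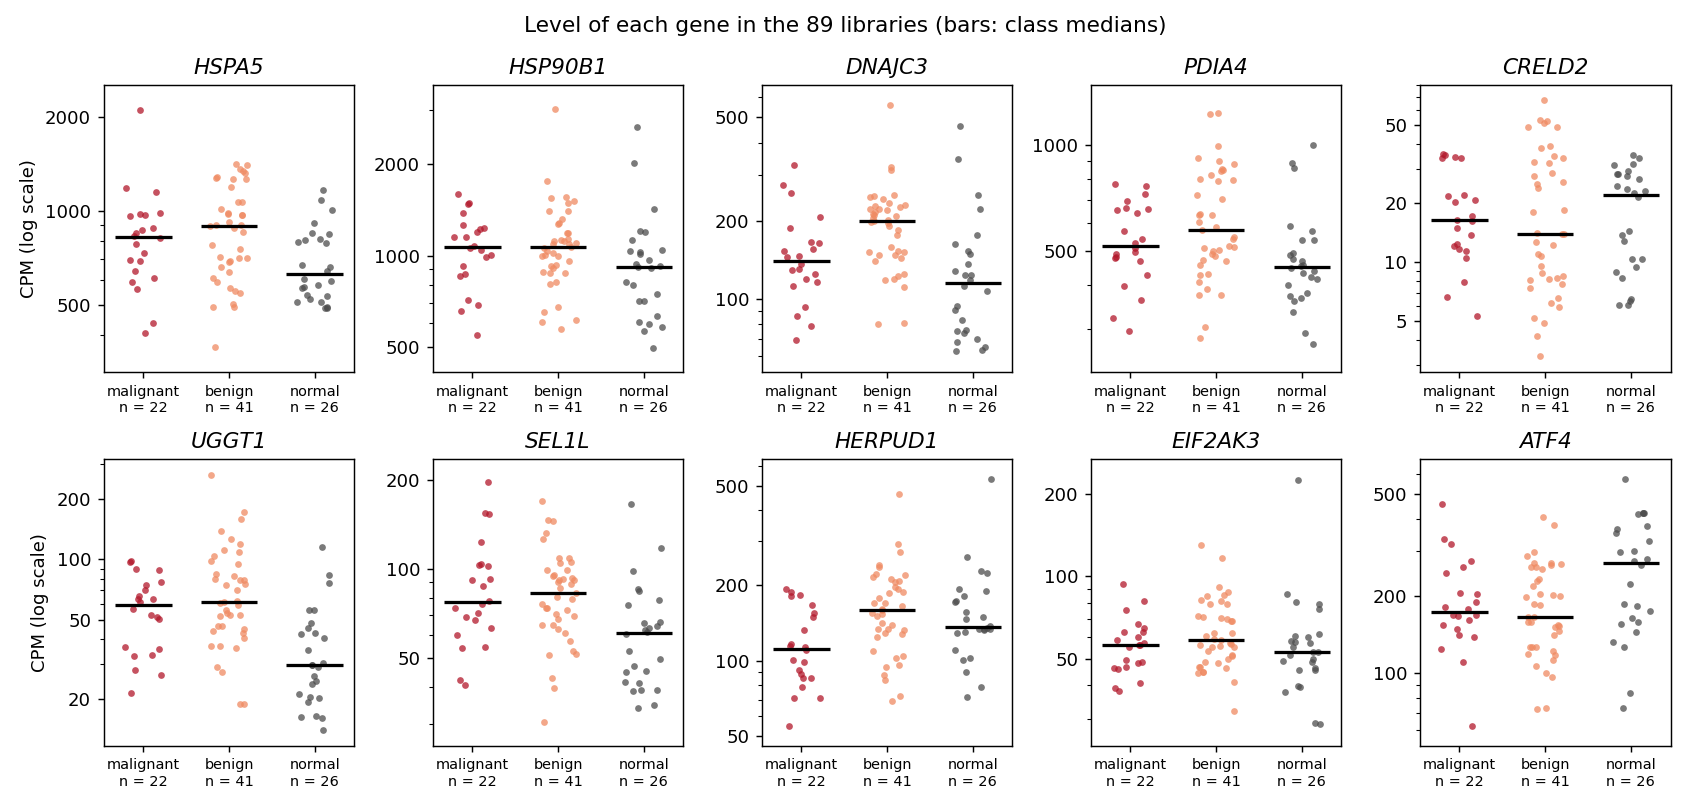
Level of each of the 10 genes in CPM on a log axis, 1 point per library, for malignant (n = 22), benign (n = 41) and normal libraries (n = 26), with bars at the class medians. The classes overlap for every gene, and the clearest shift of the medians is that of UGGT1, 59.0 CPM in malignant, 61.5 CPM in benign and 29.7 CPM in normal libraries.

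Among the folding genes, UGGT1 (ENSCAFG00000004253) had the largest difference. It encodes the glucosyltransferase that inspects glycoproteins and sends misfolded ones back for another round of folding. Its lowest, median and highest levels were 21.6, 59.0 and 98.5 CPM in malignant libraries, 18.9, 61.5 and 265 CPM in benign libraries, and 14.1, 29.7 and 115 CPM in normal libraries. The highest benign level was that of an adenoma of dog 54, and the lowest normal level that of a lobular hyperplasia of dog 83. In log2 units UGGT1 rose by 1.10 ± 0.19 in benign against normal libraries (SE; adjusted p = 0.000446), a 2.15-fold difference, and was higher in benign libraries of 15 of 16 dogs. In malignant against normal libraries it differed by 0.61 ± 0.21 (adjusted p = 0.0614; higher in 14 of 16 dogs), and in malignant against benign libraries by -0.49 ± 0.20 (adjusted p = 0.225). The ranges of the classes overlapped, while the sign within dogs was nearly uniform for benign tumors.

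HSPA5 (ENSCAFG00000020196) encodes BiP, the Hsp70 chaperone of the ER, which also holds the stress sensors inactive. Its lowest, median and highest levels were 406, 824 and 2119.9 CPM in malignant, 365, 896 and 1416 CPM in benign, and 487, 626 and 1172 CPM in normal libraries. It rose by 0.39 ± 0.12 in benign against normal libraries (log2, SE; adjusted p = 0.0223; 12 of 16 dogs higher). It differed by 0.36 ± 0.13 in malignant against normal libraries (adjusted p = 0.0686; higher in 12 of 16 dogs) and by -0.02 ± 0.12 in malignant against benign libraries (adjusted p = 0.966). HSPA5 thus had log2 differences of like size in both tumor classes, of which the benign one passed the threshold, and its highest single level was malignant.

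DNAJC3 (ENSCAFG00000005480) encodes P58IPK, a J-domain partner of BiP that also restrains PERK. Its lowest, median and highest levels were 69.2, 140.5 and 327 CPM in malignant, 80.0, 199 and 556 CPM in benign, and 62.7, 115 and 462 CPM in normal libraries. It rose by 0.60 ± 0.15 in benign against normal libraries (log2, SE; adjusted p = 0.0074; higher in 12 of 16 dogs). Its difference was 0.16 ± 0.17 in malignant against normal libraries (adjusted p = 0.611) and -0.43 ± 0.16 in malignant against benign libraries (adjusted p = 0.173; lower in 12 of 16 dogs). The benign class was thus the high one, with overlapping ranges, and the difference between malignant and normal libraries was smaller than its SE.

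HSP90B1 (ENSCAFG00000007427), PDIA4 (ENSCAFG00000003403) and CRELD2 (ENSCAFG00000000709) were not called in any class comparison. HSP90B1 encodes GRP94, the Hsp90 chaperone of the ER, and its medians were 1065 CPM in malignant, 1064 CPM in benign and 920.02 CPM in normal libraries. Its log2 differences were 0.21 ± 0.12 in malignant and 0.24 ± 0.10 in benign against normal libraries (SE; adjusted p = 0.269 and 0.0965). PDIA4, a disulfide isomerase known as ERp72, had medians of 518 CPM in malignant, 575 CPM in benign and 451 CPM in normal libraries. It came close to the threshold in benign against normal libraries (0.32 ± 0.12, adjusted p = 0.0572; higher in 13 of 16 dogs), and differed by 0.16 ± 0.13 in malignant against normal libraries (adjusted p = 0.482). CRELD2, a secreted ER factor with disulfide isomerase motifs and a classical stress-induced gene, had medians of 16.4 CPM in malignant, 14.0 CPM in benign and 22.02 CPM in normal libraries. Its benign levels spread from 3.31 to 66.9 CPM, and its log2 differences of 0.13 ± 0.24 in malignant and 0.08 ± 0.22 in benign against normal libraries had the largest SE of the 10 genes.

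Of the genes of ER-associated degradation, SEL1L and HERPUD1 moved in different comparisons. SEL1L (ENSCAFG00000017315) encodes the adaptor of the HRD1 ubiquitin ligase, which moves misfolded proteins out of the ER. Its lowest, median and highest levels were 40.6, 77.1 and 196 CPM in malignant, 30.4, 83.2 and 169.7 CPM in benign, and 34.0, 60.8 and 166 CPM in normal libraries. It rose by 0.46 ± 0.12 in benign against normal libraries (log2, SE; adjusted p = 0.01; higher in 14 of 16 dogs). In malignant against normal libraries it differed by 0.41 ± 0.14 (adjusted p = 0.0591; higher in 12 of 16 dogs), and in malignant against benign libraries by -0.06 ± 0.13 (adjusted p = 0.908). Both tumor classes had higher medians than the normal class, and the benign call was the 1 that passed.

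HERPUD1 (ENSCAFG00000008980) encodes an ER membrane protein that organizes the degradation complex and is strongly induced by ER stress. Its lowest, median and highest levels were 55.0, 112 and 194 CPM in malignant, 68.9, 159 and 465 CPM in benign, and 71.7, 136 and 534 CPM in normal libraries. It fell in malignant against benign libraries by 0.54 ± 0.14 (log2, SE; adjusted p = 0.0413), and was lower in malignant libraries of 14 of 16 dogs. Against normal libraries it differed by -0.41 ± 0.15 in malignant (adjusted p = 0.0853; 12 of 16 dogs lower) and by 0.13 ± 0.13 in benign libraries (adjusted p = 0.558). The call for HERPUD1 was lost without dog 1, 13, 17, 18, 29, 36, 54, 69 or 82, 9 of the 16 omissions of 1 dog, with log2 differences between -0.62 and -0.46 over all omissions and a highest adjusted p of 0.22 without dog 54. It was also lost in 7 other fits. These were sequencing run within dog as the block (-0.35, adjusted p = 0.394, 0 of 16806 gene rows called), no dog block (-0.49, 0.0695), no filter on low counts (-0.53, 0.0579), and the fits without high-muscle libraries (-0.54, 0.089), without atypias and carcinomas in situ (-0.51, 0.101), without complex adenomas and mixed carcinomas (-0.58, 0.398) and without libraries of RNA integrity under 7 (-0.52, 0.101).

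EIF2AK3 and ATF4 belong to the PERK branch of the response. EIF2AK3 (ENSCAFG00000007383) encodes PERK itself, the ER kinase that slows translation. Its medians were 56.1 CPM in malignant, 58.4 CPM in benign and 52.8 CPM in normal libraries, and its log2 differences of -0.02 ± 0.13 in malignant and 0.16 ± 0.11 in benign against normal libraries were not called (SE; adjusted p = 0.941 and 0.34). ATF4 (ENSCAFG00000001324) encodes the transcription factor whose translation PERK and other kinases favor, so that its mRNA need not follow its protein. Its lowest, median and highest levels were 62.4, 174 and 459 CPM in malignant, 72.3, 166 and 407 CPM in benign, and 73.1, 269 and 574 CPM in normal libraries. ATF4 fell by 0.44 ± 0.13 in benign against normal libraries (log2, SE; adjusted p = 0.0186) and was lower in benign libraries of 13 of 16 dogs. In malignant against normal libraries it differed by -0.29 ± 0.15 (adjusted p = 0.227; 10 of 16 dogs lower), and in malignant against benign libraries by 0.15 ± 0.14 (adjusted p = 0.704).

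**Figure D2:**
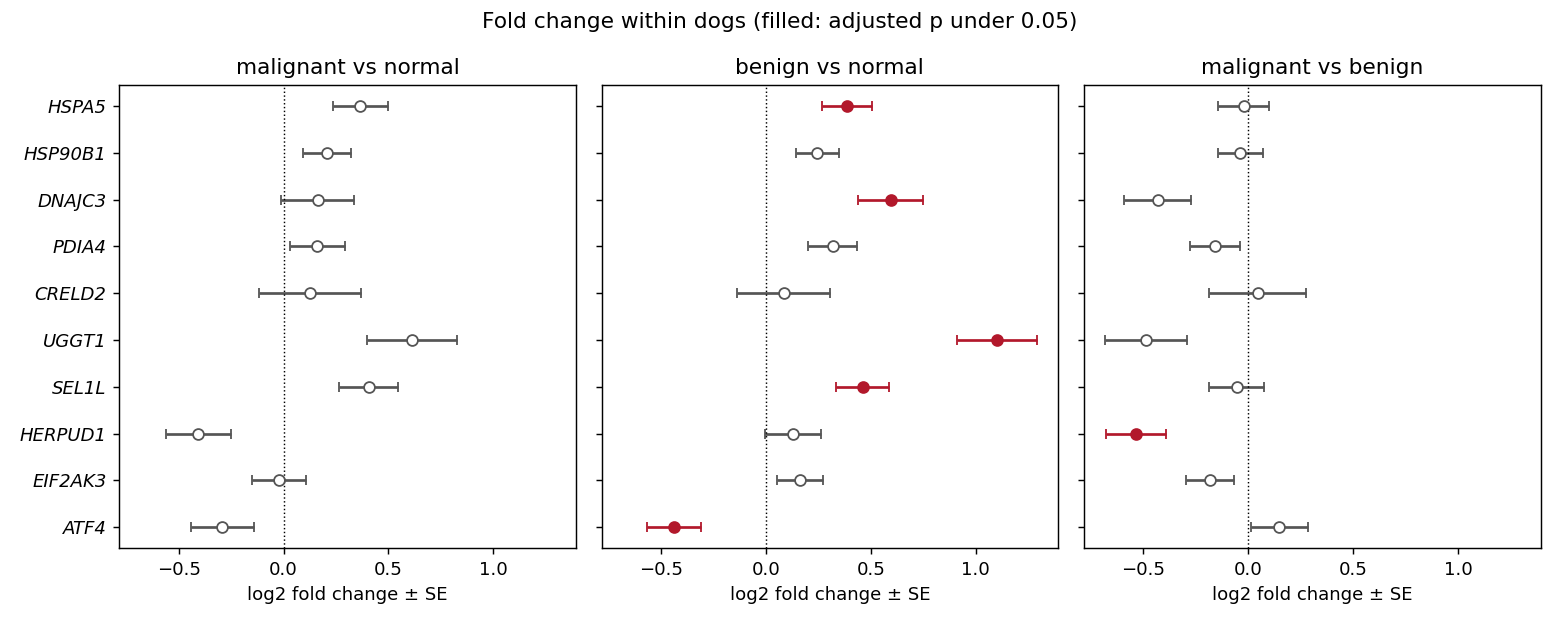
Log2 fold change within dogs (x axis, error bars are SE) of each gene in malignant against normal, benign against normal and malignant against benign libraries, with called genes filled. UGGT1 at 1.10, DNAJC3 at 0.60, SEL1L at 0.46, HSPA5 at 0.39 and ATF4 at -0.44 are filled for benign against normal, and HERPUD1 at -0.54 is the filled gene for malignant against benign.

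RNA quality and the markers of several cell types differed between the classes. Intact RNA has an integrity number of 10.0, and this number averaged 9.16 ± 0.961 in malignant (SD, n = 19), 9.22 ± 0.602 in benign (SD, n = 40) and 7.94 ± 1.495 in normal libraries (SD, n = 22). Of the libraries with a number under 7, 2 were malignant, 0 benign and 6 normal. The adipocyte score, the mean centred log2 CPM of 11 of 18 listed markers, averaged -0.234 ± 0.625 in malignant, -0.271 ± 0.753 in benign and 0.625 ± 1.05 in normal libraries (SD). Of these 11 markers, 5 fell in malignant and 7 in benign against normal libraries, none rose, and their summed level ranged over 131 to 755 CPM in malignant, 144 to 864 CPM in benign and 195 to 3667 CPM in normal libraries. FABP4, the fatty acid carrier of adipocytes, had no read in 2 benign libraries. Skeletal muscle markers, 8 of 16 listed ones, summed to medians of 205 CPM in malignant, 166 CPM in benign and 180.01 CPM in normal libraries, with highest sums of 1889, 34215 and 30589 CPM. Their score exceeded 3 in 2 malignant, 2 benign and 8 normal libraries, and 0 of the 8 markers were called in malignant and 3 fell in benign against normal libraries.

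Milk secretion markers, which are mostly epithelial and share LPL with the adipocyte list, had larger median log2 differences from normal libraries than adipocyte markers did. Of 11 tested, 3 fell in malignant and 6 in benign against normal libraries and 0 rose. Their median log2 differences were -1.22 in malignant and -1.84 in benign, beside -0.74 in malignant and -0.55 in benign for the adipocyte list. Summed levels had medians of 7534 CPM in malignant, 6464 CPM in benign and 8275 CPM in normal libraries for milk markers. For adipocyte markers these were 302, 330 and 479 CPM. CSN3 differed by -4.21 ± 0.99 (adjusted p = 0.00331) and ELF5, a transcription factor of milk-secreting cells, by -1.84 ± 0.31 (adjusted p = 0.00025) in benign against normal libraries (log2, SE). Of 10 endothelial markers, 1 fell in malignant, and 5 fell and 1 rose in benign against normal libraries. Of 8 T and NK cell markers, 0 were called in malignant and 3 fell in benign libraries, and of 16 luminal markers 1 fell in malignant and 2 in benign libraries, the benign ones being EPCAM (-0.45 ± 0.13, adjusted p = 0.0143) and MUC1 (-1.51 ± 0.44, adjusted p = 0.0159). The part of milk-secreting, endothelial and T or NK cells in the class differences of the 10 genes was not tested.

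The calls in benign against normal tissue were lost when RNA integrity or the adipocyte score entered the fit. Both measures differed between the classes, so their part and that of class cannot be told apart here. HSPA5 was not called with either covariate, at 0.36 (81 libraries) and 0.35 (89 libraries). It was at 0.39 in the main fit of 89 libraries. That fit called 2002 of 16806 gene rows. With the RNA integrity number as a covariate in the 81 libraries that had one, 0 of the 10 genes were called and 27 of 16863 gene rows, while the same libraries without the covariate gave the same count of 5 called genes. UGGT1 then differed by 0.88 ± 0.21 (SE; adjusted p = 0.0531), DNAJC3 by 0.36 (0.351), SEL1L by 0.34 (0.277), HSPA5 by 0.36 (0.234) and ATF4 by -0.10 (0.849), all as log2 differences. With the adipocyte score as a covariate, 0 of the 10 genes and 0 of 16806 gene rows were called, and the log2 differences were 0.54 for UGGT1 (adjusted p = 0.218), 0.26 for DNAJC3, 0.29 for SEL1L, 0.35 for HSPA5 and -0.22 for ATF4. None of these differences passed the threshold.

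Leaving out libraries also removed calls. Without the 12 libraries of high muscle score, 0 of the 10 genes and 1 of 16822 gene rows were called, with UGGT1 at 0.95 (log2; adjusted p = 0.0516), DNAJC3 at 0.39 (0.318), SEL1L at 0.29 (0.342), HSPA5 at 0.23 (0.472) and ATF4 at -0.30 (0.365). Without the 8 libraries of RNA integrity under 7, a choice made after the data had been seen, UGGT1 was the gene still called, at 0.92 (adjusted p = 0.0197). SEL1L at 0.36 (adjusted p = 0.156), DNAJC3 at 0.39 (0.21), HSPA5 at 0.27 (0.233) and ATF4 at -0.24 (0.399) were not called then. With sequencing run within dog as the block, UGGT1 and DNAJC3 were called. Leaving out dog 13 left 2 calls, since HSPA5 (0.34, adjusted p = 0.0843), SEL1L (0.36, 0.068) and ATF4 (-0.31, 0.114) were not called without it. HSPA5 was also not called without dog 69, nor ATF4 without dog 70 or dog 83, and UGGT1 and DNAJC3 were called in all 16 such omissions. Without dog 47 there were 8 calls, PDIA4 (0.38, adjusted p = 0.017), HSP90B1 (0.31, 0.0194) and EIF2AK3 (0.27, 0.0429) being added. Over all gene rows, 3117 were called without dog 47 and 977 without dog 13, beside 2002 in the main fit. The part of RNA quality and of fat or muscle in the class differences was not tested beyond these fits.

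**Figure D3:**
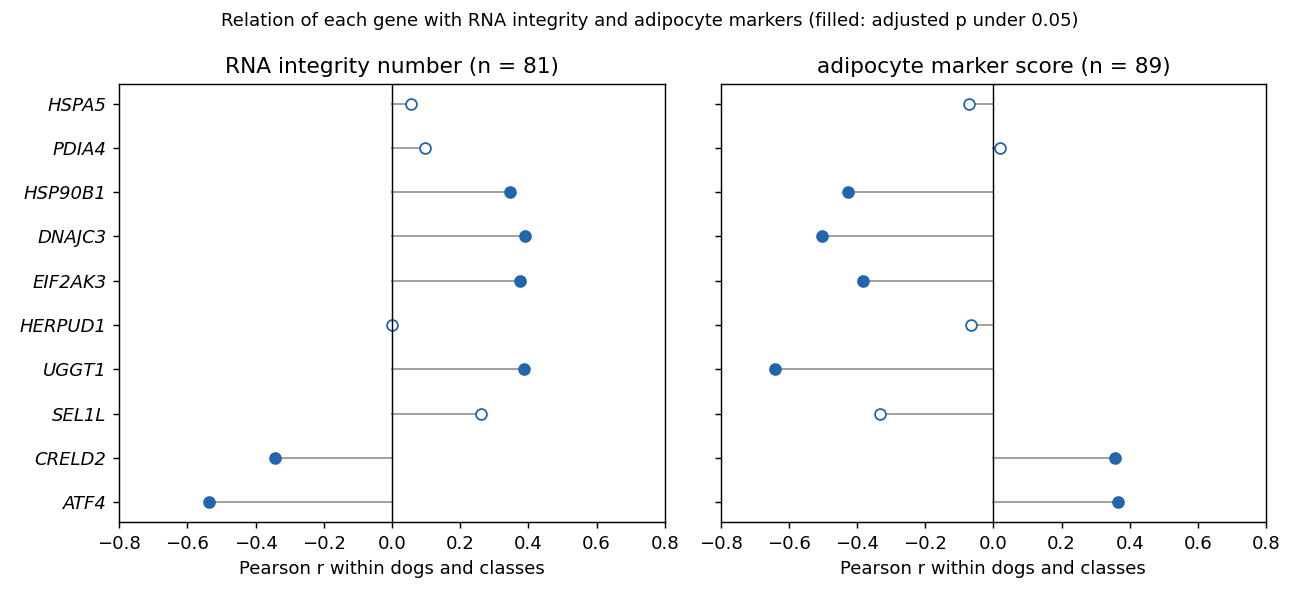
Pearson r of each gene's log2 CPM with the RNA integrity number (n = 81 libraries) and with the adipocyte marker score (n = 89 libraries), both with the mean of each dog and class removed. Filled points have an adjusted p under 0.05; UGGT1 at -0.639 with the adipocyte score and ATF4 at -0.536 with RNA integrity lie farthest from 0, and HSPA5, PDIA4 and HERPUD1 lie near 0 in both panels.

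The same measures moved with the genes inside classes. With dog and class means removed and libraries permuted within dogs (100000 resamples, two-sided, 110 relations in the family), 20 relations had an adjusted p under 0.05. ATF4 fell with rising RNA integrity (r = -0.536, adjusted p = 0.00073; rho = -0.533, adjusted p = 0.0016; r without the 2 libraries farthest from the median -0.536; n = 81). DNAJC3 (r = 0.389), UGGT1 (0.386), EIF2AK3 (0.375) and HSP90B1 (0.346) rose with it, and CRELD2 (-0.342) fell with it, with adjusted p between 0.019 and 0.042. UGGT1 fell with a rising adipocyte score (r = -0.639, adjusted p = 0.00073; rho = -0.619, adjusted p = 0.0011; r = -0.645 without the 2 farthest; n = 89), the raw p of 1e-05 being the smallest these permutations can give. DNAJC3 (-0.503), HSP90B1 (-0.425) and EIF2AK3 (-0.381) fell with that score as well, and ATF4 (0.366) and CRELD2 (0.356) rose with it. SEL1L had r = 0.262 with RNA integrity (adjusted p = 0.17) and r = -0.333 with the adipocyte score (adjusted p = 0.052). HSPA5, PDIA4 and HERPUD1 had r between -0.07 and 0.097 with both measures.

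Other cell types gave fewer relations. For the plasma and B cell score, 13 of 18 markers, r lay between -0.163 (UGGT1) and 0.238 (HERPUD1), and none had an adjusted p under 0.05. As background, plasma cells are rich in ER and express many of these genes. With that score as a covariate, 6 of the 10 genes were called in benign against normal libraries, the sixth being PDIA4 (0.36, adjusted p = 0.0314). The main fit, without the score, called 5 of the 10 genes and 11.9% of all gene rows. The share of all gene rows called with the score is not given here. The part of plasma and B cells in the class differences was not tested. JCHAIN, the joining chain of secreted antibodies, had reads in every library, with medians of 1984 CPM in malignant, 1103 CPM in benign and 2065 CPM in normal libraries. The summed level of the list ranged over 437 to 11329 CPM in malignant, 425 to 12772 CPM in benign and 597 to 29952 CPM in normal libraries. SEL1L fell with a rising milk secretion score (r = -0.371, adjusted p = 0.019; rho = -0.345, adjusted p = 0.024; r = -0.328 without the 2 farthest). UGGT1 fell with the endothelial score (r = -0.507, adjusted p = 0.0022; rho = -0.42, adjusted p = 0.0062; r = -0.487 without the 2 farthest), and CRELD2 rose with it (r = 0.306, adjusted p = 0.049). With the skeletal muscle score DNAJC3 (r = -0.466, adjusted p = 0.01) and UGGT1 (r = -0.414, adjusted p = 0.014) fell and ATF4 rose (r = 0.33, adjusted p = 0.032). EIF2AK3 fell (r = -0.365, adjusted p = 0.018) and CRELD2 rose (r = 0.333, adjusted p = 0.0077) with the basal and myoepithelial score. The part of the basal cells in the class differences was not tested.

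Dog, with 16 levels against 3 for class, took more of the variance than class in 9 of the 10 genes, UGGT1 being the exception. Dog accounted for between 22.1% (UGGT1) and 47.3% (ATF4) of the variance of log2 CPM, beside a median of 34.9% over all gene rows. Class, after dog, accounted for 23.4% in UGGT1, 15.3% in DNAJC3, 13.0% in SEL1L, 12.1% in HERPUD1 and 10.1% in HSPA5, and for 0.508% in CRELD2, beside a median of 3.13%. UGGT1 was thus the gene with the least dog and the most class variance of the 10. For ATF4 the median level of a dog's libraries was 73.1 CPM in dog 47, the lowest, and 334 CPM in dog 83, the highest, a ratio of 4.57. The ratio of the highest to the lowest dog was 4.09 for CRELD2 and 1.85 for EIF2AK3, the smallest.

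**Figure D4:**
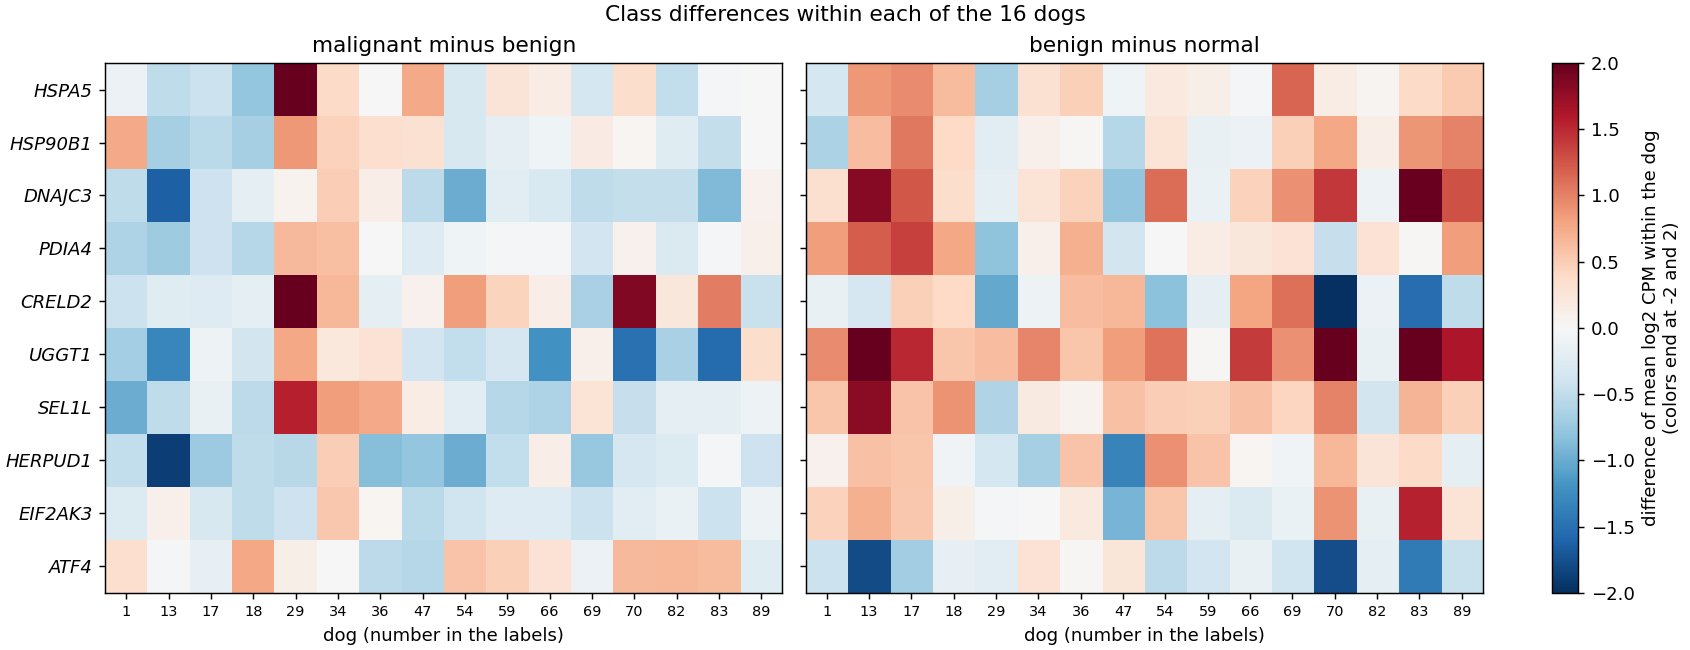
Difference of mean log2 CPM between classes inside each of the 16 dogs, malignant minus benign on the left and benign minus normal on the right (red, higher in the first class; colors end at -2.0 and 2.0). UGGT1 is red in 15 of 16 dogs for benign minus normal, HERPUD1 is blue in 14 of 16 dogs for malignant minus benign, and dog 29 stands out on the left.

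Single dogs lay far from the others. In dog 29 the malignant library, a carcinoma with necrosis in the labels and an RNA integrity number of 6.9, had the highest HSPA5 level of all 89 libraries, 2119.9 CPM. The 2 benign libraries of that dog, both complex adenomas, had 566 and 365 CPM, and its normal libraries had 566 CPM (called normal) and 919 CPM (atypia). The malignant minus benign difference was 2.22 log2 units for HSPA5, 2.00 for CRELD2 and 1.55 for SEL1L in that dog, against medians over dogs of -0.02, 0.11 and -0.20. Without dog 29 the malignant against benign difference of HSPA5 was still not called. In dog 13, the benign minus normal difference was -1.79 log2 units for ATF4 and 2.08 for UGGT1. In dog 83 this difference was the largest of the 16 dogs for UGGT1 (2.49), DNAJC3 (1.98) and EIF2AK3 (1.54). Both normal libraries of dog 83 had an RNA integrity number under 7, the lower being 4.4, the lowest of all libraries with a number. In dog 13, a normal library had a number under 7 as well. The part of RNA quality in these differences was not tested. In dog 47, HERPUD1 differed from normal libraries by -2.12 log2 units in malignant and -1.34 in benign libraries, and the single normal library with 534 CPM there was the highest of all 89.

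By detailed histology, 0 of the 10 genes were called in any of the 9 contrasts of edgeR's fit. These set a type against lobular hyperplasia, or complex adenomas or carcinomas against adenomas. In carcinomas against lobular hyperplasias (0.0893% of gene rows called, 0.0714% as higher), HSPA5 had the largest difference, 0.61 ± 0.18 (log2, SE; adjusted p = 0.136), with levels of 438, 868 and 2119.9 CPM in carcinomas (n = 15) and 487, 594 and 1084 CPM in lobular hyperplasias (n = 14) as lowest, median and highest. There, 3 genes and 2235 of 16806 gene rows had an unadjusted p under 0.05. In adenomas against lobular hyperplasias (0.0595% called, 0.00595% as higher and 0.0536% as lower), UGGT1 differed by 0.93 ± 0.26 (adjusted p = 0.139), HSPA5 by 0.55 ± 0.16 (0.151), SEL1L by 0.47 ± 0.16 (0.213) and PDIA4 by 0.43 ± 0.16 (0.248). There, 7 of the 10 genes had an unadjusted p under 0.05, as 2041 of 16806 gene rows did, and DESeq2 called 2. In complex adenomas against lobular hyperplasias (0.536% called), UGGT1 differed by 0.84 ± 0.29 (adjusted p = 0.197) and ATF4 by -0.45 ± 0.20 (0.358), and 3 genes, and 1932 of 16806 gene rows, had an unadjusted p under 0.05. The 2 adenoma types differed from each other by at most 0.33 in absolute log2 value (CRELD2, -0.33 ± 0.28), with 0 of 10 called beside 0.0476% of gene rows (0.00595% as lower). Carcinomas against adenomas gave 0 of 10 (0% of gene rows called; 2 genes and 1141 of 16806 gene rows at an unadjusted p under 0.05), with HERPUD1 at -0.47 ± 0.18 (adjusted p = 0.644) and DNAJC3 at -0.42 ± 0.20 (0.721).

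The small histology types spread as follows. UGGT1 had 74.8, 61.2, 51.3 and 56.9 CPM in the 4 mixed carcinomas, of which the first 2 came from dog 1. It had 35.7, 70.5 and 32.9 CPM in the 3 carcinomas in situ, 35.3, 83.7, 42.5 and 29.7 CPM in the 4 atypias, and 20.5 and 16.5 CPM in the 2 samples called normal. Both samples called normal thus lay under every one of these lesions for UGGT1. HSPA5 had 736, 989.6, 817 and 783 CPM in mixed carcinomas, 697, 406 and 829.8 CPM in carcinomas in situ, 789, 919, 596 and 488 CPM in atypias, and 540.1 and 566 CPM in the samples called normal. ATF4 had 167, 259, 205 and 334 CPM in mixed carcinomas, 138, 205 and 247 CPM in carcinomas in situ, 186, 155, 145 and 159 CPM in atypias, and 574 and 265 CPM in the samples called normal. For ATF4 the 2 samples called normal lay above the atypias. Mixed carcinomas, carcinomas in situ, atypias and duct ectasias against lobular hyperplasias each gave 0 of 10 genes and 0% of gene rows with edgeR. At an unadjusted p under 0.05 there was 1 gene of the 10 for carcinoma in situ, HERPUD1 (-0.80 ± 0.38, adjusted p = 0.57), beside 1413 of 16806 gene rows, and 0 genes for the other 3 types. DESeq2 called 0 of the 10 genes in these 4 contrasts.

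Tumor diameter, available for 59 tumors in a unit the labels do not name, gave 0 of 10 genes with edgeR and with DESeq2, with 0% of 16276 gene rows called in the edgeR fit. SEL1L had the steepest slope, 0.14 ± 0.05 log2 units for each doubling of the diameter (SE; unadjusted p = 0.0153; adjusted p = 0.499). It was the 1 gene of the 10 with an unadjusted p under 0.05, beside 1370 of 16276 gene rows.

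The 10 genes did not vary as 1 block. After dog and class were removed from log2 CPM, the 45 pairs of genes had Pearson r between -0.615 and 0.754 over the 89 libraries, with a median of 0.284 and 32 positive pairs. The median over all pairs of tested genes with a symbol was -0.0013. These r are descriptions, since all pairs share libraries, sequencing depth and RNA quality. DNAJC3 varied most closely with EIF2AK3 (r = 0.754), HSP90B1 (0.734) and UGGT1 (0.726), and SEL1L with UGGT1 (0.663). HSPA5 varied with HSP90B1 (0.592), PDIA4 (0.545) and CRELD2 (0.447). ATF4 went the other way, with r of -0.615 with EIF2AK3, -0.602 with DNAJC3, -0.542 with UGGT1 and -0.533 with HSP90B1, and its 1 strong positive partner was CRELD2 (0.688). CRELD2 thus sat between HSPA5 and PDIA4 on one side and ATF4 on the other, and was negative with EIF2AK3 (-0.485).

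**Figure D5:**
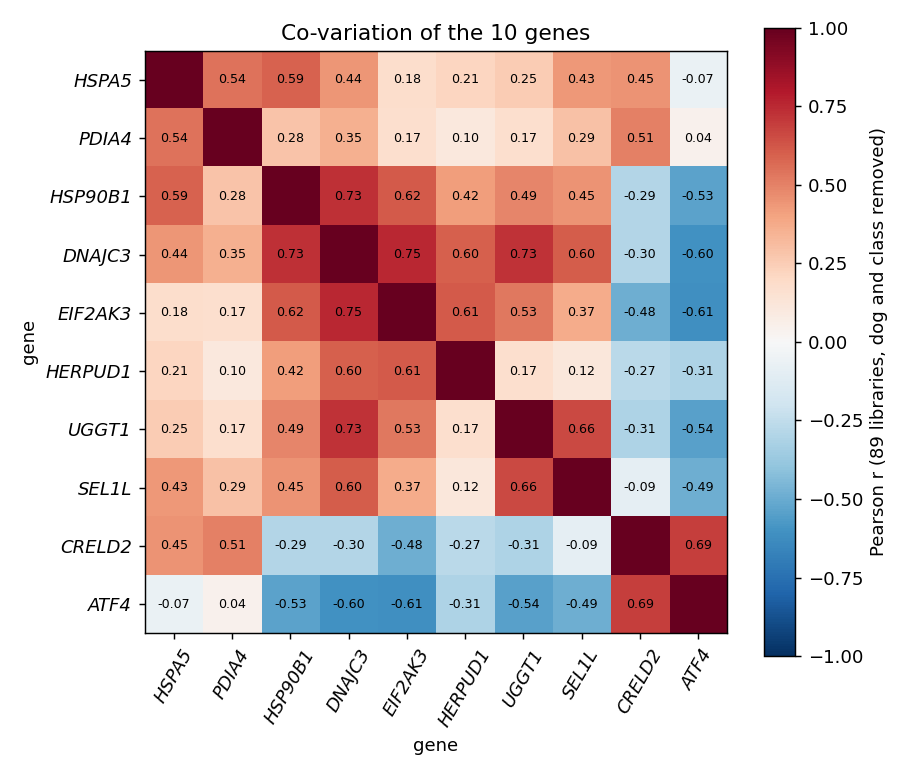
Pearson r between the 10 genes over 89 libraries after dog and class means were removed, from -1 (blue) to 1 (red). A group of DNAJC3, EIF2AK3, HSP90B1, UGGT1 and SEL1L is red among itself, while ATF4 is blue with these genes and red with CRELD2 (0.688).

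Genes outside the list were ranked by their likeness to HSPA5 and to ATF4, as r of the same residuals over 89 libraries among 7816 genes with a symbol. HSPA5 was most like ZFAND2A (r = 0.668), KDELR2 (0.664), CYCS (0.610), PRRC1 (0.609), PDIA6 (0.602), PSMB1 (0.592), BCKDK (0.553) and RPN2 (0.553). KDELR2 returns escaped ER proteins from the Golgi, PDIA6 is an ER disulfide isomerase, and RPN2 is a subunit of the oligosaccharyltransferase. ATF4 was most like HDDC3 (r = 0.864), YBX1 (0.862), TRIR (0.857), USF2 (0.854), DRAP1 (0.852), PFDN5 (0.852), TMUB1 (0.847) and STXBP2 (0.846). Of these, YBX1 binds RNA and DNA, USF2 is a transcription factor and PFDN5 is a prefoldin subunit. The r of the nearest genes was higher for ATF4 than for HSPA5. RNA integrity was not removed from these residuals, and r with it was -0.536 for ATF4 and 0.057 for HSPA5. The part of RNA quality in the likeness was not tested.

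The wider pathway lists hold none of the 10 genes. Their counts stand beside 11.9% of all gene rows called in benign against normal libraries (6.45% as higher, 5.46% as lower), 7.3% in malignant against normal (4.42% and 2.88%) and 0.91% in malignant against benign libraries. Among other ER chaperones and folding enzymes, 4 of 25 tested genes rose and 0 fell in benign against normal libraries (median log2 difference 0.13), and 3 rose and 1 fell in malignant against normal libraries (median 0.09). The oxidase gene ERO1B rose in both, by 0.64 ± 0.20 in malignant and 0.64 ± 0.18 in benign libraries (log2, SE; adjusted p = 0.0374 and 0.0136), and so did UGGT2, the paralog of UGGT1, by 0.61 ± 0.15 and 0.57 ± 0.14. CANX, the lectin chaperone calnexin, rose in malignant libraries by 0.27 ± 0.08 and QSOX1, another oxidase, in benign libraries by 0.55 ± 0.16. PDIA5, a disulfide isomerase, fell in malignant against normal libraries by 0.54 ± 0.13 (adjusted p = 0.0104) and in malignant against benign libraries by 0.55 ± 0.12 (adjusted p = 0.0168), the 1 gene of 25 called there.

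For ER-associated degradation, 2 of 25 genes rose and 2 fell in benign against normal libraries (median -0.02), and 0 moved in malignant against normal libraries (median -0.07). EDEM3, a mannosidase that marks misfolded glycoproteins, rose by 1.03 ± 0.26 in benign libraries (adjusted p = 0.00496), with medians of 76.6 CPM in malignant, 119.9 CPM in benign and 74.7 CPM in normal libraries. NGLY1, which strips sugar chains from such proteins, rose by 0.54 ± 0.16, while HERPUD2, the paralog of HERPUD1, fell by 0.36 ± 0.07 and AUP1 by 0.28 ± 0.09. In malignant against benign libraries 1 of 25 fell, EDEM3 itself, by 1.00 ± 0.26 (adjusted p = 0.0403).

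Of 18 stress sensors and their transcription factors, 3 rose and 2 fell in benign against normal libraries (median 0.04), and 1 rose and 0 fell in malignant against normal libraries (median 0.04). The gene that rose in malignant libraries was ATF6, the ER stress sensor, by 0.35 ± 0.11 (adjusted p = 0.0424). In benign libraries the translation kinases EIF2AK2 (0.87 ± 0.27) and EIF2AK4 (0.28 ± 0.10) and the transcription factor CREB3L2 (0.47 ± 0.12) rose. PPP1R15A, the GADD34 subunit that ends the translation block, fell by 0.83 ± 0.19 (adjusted p = 0.00223) and WFS1, an ER membrane protein, by 0.42 ± 0.12. PPP1R15A had medians of 23.5 CPM in malignant, 19.4 CPM in benign and 36.6 CPM in normal libraries.

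The list of ATF4 targets had 21 tested genes. In benign against normal libraries 3 rose and 1 fell (median 0.18), and in malignant against normal libraries 4 rose and 1 fell (median 0.18). TRIB3, a pseudokinase of the stress response (0.75 ± 0.24), the growth factor VEGFA (0.74 ± 0.26) and the folate enzyme ALDH1L2 (0.69 ± 0.22) rose in benign libraries, and ATF3, a stress transcription factor, fell by 0.79 ± 0.18 (adjusted p = 0.00259). In malignant libraries VEGFA (0.96 ± 0.29), ALDH1L2 (0.83 ± 0.25) and the transcription factor ATF5 (0.63 ± 0.16) rose, and SLC3A2, an amino acid transporter chain, fell by 0.38 ± 0.11. In malignant against benign libraries 0 rose and 1 fell, SLC7A5, an amino acid transporter named here after its value was seen (-0.95 ± 0.25, adjusted p = 0.0462).

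Of 21 genes of ER-to-Golgi transport, 3 rose and 0 fell in malignant and 5 rose and 0 fell in benign against normal libraries (medians 0.17 and 0.17). LMAN1, a cargo receptor for glycoproteins, rose by 0.69 ± 0.18 in malignant and 0.69 ± 0.16 in benign libraries, and SEC23A, a coat subunit of export vesicles, by 0.59 ± 0.19 and 0.68 ± 0.17. KDELR3 rose in malignant libraries by 0.51 ± 0.15 and SEC24A in benign libraries by 0.51 ± 0.17. Of 26 genes of the translocon and N-glycosylation, 2 rose and 0 fell in benign libraries (STT3B by 0.59 ± 0.15 and SSR1 by 0.39 ± 0.14; median 0.04), and 0 moved in malignant libraries (median -0.04). Of 18 heat shock genes of cytosol and mitochondria, 1 rose in benign libraries (HSPA9, 0.25 ± 0.07; median 0.01) and 0 in malignant libraries (median -0.03). These list genes carry the same limit as the 10 genes, since 27 gene rows of the whole table were called in benign against normal libraries with the RNA integrity covariate and 0 with the adipocyte covariate.

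The authors' deposited scores, scaled per gene to a mean of 0 with unit SD, gave the same order of the class medians as the CPM for the 6 genes called. The score of UGGT1 averaged 0.06 ± 0.54 in malignant, 0.50 ± 0.96 in benign and -0.84 ± 0.80 in normal libraries (SD). That of ATF4 averaged 0.04 ± 0.86 in malignant, -0.34 ± 0.97 in benign and 0.50 ± 0.96 in normal libraries. Tested with limma and dog as a block, 7 of the 10 scores were called in benign against normal, 3 in malignant against normal and 1 in malignant against benign libraries, where 1240, 833 and 129 of 8068 scores were called.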

How the data were processed

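Per the labels, polyadenylated RNA of 89 samples was extracted with RNeasy kits, made into libraries with PrepX kits and sequenced on a HiSeq2000. Per the submitters' processing notes, HISAT2, FastQC and CanFam3.1 were used, with no versions given. Of the counting program, annotation and strand setting, nothing is given in the sources used here. How reads of overlapping or antisense genes were assigned is therefore not known, apart from the reads set aside as ambiguous. The authors deposited raw read counts per Ensembl gene and library, and a table of scores per gene symbol whose making is not stated. Score columns were paired with count rows by correlation over libraries of values centred within dogs. A pair had to reach r = 0.99 with the next best row under 0.98, which bounds the values that follow. This gave 8068 pairs (lowest r = 0.99278, next best row at most 0.9745), and 3435 of 11503 score columns were not used. Rows naming no gene (37.4% not aligned, 16.0% without a gene and 0.078% ambiguous reads on average) stayed out. Gene reads averaged 36.2 ± 13.2 M (SD, n = 89). No libraries were identical (highest correlation 0.9914).

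Counts were filtered (filterByExpr, minimum count 10, minimum total 15), TMM-scaled and tested with edgeR 4.0.16 (R 4.3.3, quasi-likelihood, Benjamini-Hochberg adjustment, threshold 0.05), with dog as a block because same-dog libraries come from 1 animal per the labels; every dog holds all classes. The SE of an edgeR difference is its absolute log2 value divided by the square root of its F statistic. Log2 CPM used a prior count of 2. Marker scores are mean centred log2 CPM. DESeq2 1.42.0, limma 3.58.1, covariates and omissions of dogs or libraries were alternatives. P-values of the class fits weigh a difference against the spread between libraries that is left after dog. Libraries of the same dog and class counted separately, and no term let the class difference vary between dogs. The class fit alone was tried on simulated counts, for malignant against normal libraries, with 200 genes changed. The simulated counts held no dog, RNA integrity or cell type effects, and the other fits were not tried in this way. The members and all lists were chosen with earlier results of these data known. Named were all members, at most 3 called genes each way with the largest change per wider list in malignant and benign against normal libraries, and the 8 genes most like HSPA5 and ATF4.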

Additional observations from a re-analysis of the deposited data

Results flagged for a closer look

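The 30 groups looked at were each 1 of the 10 genes in the mixed carcinomas (n = 4), atypias (n = 4) or duct ectasias (n = 6). They share libraries between genes, and chance flags about 1 in 20. Of these groups, 2 held a library far from the others. PDIA4 had 469.27 CPM in 1 mixed carcinoma (malignant replicate 2, dog 1), below the other 3 mixed carcinomas. PDIA4 had 1003.28 CPM in 1 atypia (normal replicate 9, dog 29), above the other 3 atypias and the highest of all normal libraries. In both cases the gap to the nearest library took most of the group's range, 0.951 and 0.854 of it.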

How the results depend on the processing

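The counts of called genes among the 10 depended on the fit. In benign against normal libraries (5 called) the count was 0 with the RNA integrity covariate, with the adipocyte score covariate and without high-muscle libraries, 2 with sequencing run within dog as the block, and 1 without libraries of RNA integrity under 7, a setting chosen after seeing the data; omissions of 1 dog gave 2 to 8. In malignant against normal libraries (0 called) it was 1 with no replicate block (no dog block), with sequencing run as the block, without atypias and carcinomas in situ and without complex adenomas and mixed carcinomas, 2 in the libraries with RNA integrity and with dog as a random effect, and 3 with DESeq2 and with the deposited scores; omissions gave 0 to 3. In malignant against benign libraries (1 called) it was 0 with no replicate block, with no filter on low counts, without high-muscle libraries, with sequencing run as the block, without atypias and carcinomas in situ, without complex adenomas and mixed carcinomas and without libraries of RNA integrity under 7; omissions gave 0 to 1. With no replicate block 1 gene was called in carcinomas and 1 in complex adenomas against lobular hyperplasias (0 called in each as reported). In adenomas against lobular hyperplasias DESeq2 called 2 and the libraries with RNA integrity 1, and omissions gave 0 to 1 for both adenoma types. The dog block changed no other count of the members beyond these by over 1.5 times. The cause of these shifts was not tested.

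Signs turned for differences near 0, none of them called. In malignant against normal libraries DNAJC3 was -0.035 with the RNA integrity covariate, -0.128 with the adipocyte covariate, -0.027 without high-muscle libraries and -0.001 without low RNA integrity. EIF2AK3 was 0.019 with dog as a random effect, 0.022 with the run block, 0.011 without complex and mixed tumors, 0.091 in the scores (in SD of the score) and -0.087 to 0.092 over omissions, and CRELD2 was -0.033 with no replicate block. In benign against normal libraries HERPUD1 was -0.013 with the run block, EIF2AK3 -0.018 with RNA integrity and -0.035 with the adipocyte covariate, and CRELD2 -0.021 without high-muscle libraries, -0.080 with dog as a random effect, -0.043 in the scores and -0.011 to 0.196 over omissions. In malignant against benign libraries HSPA5 was 0.021 with RNA integrity, 0.017 in the libraries having it, 0.013 without high-muscle libraries, 0.008 with the run block, 0.027 without atypias and carcinomas in situ and -0.155 to 0.032 over omissions. SEL1L was 0.062 with no replicate block. HSP90B1 was 0.042 with RNA integrity, 0.006 in the libraries having it, 0.016 without atypias and carcinomas in situ and -0.090 to 0.002 over omissions. CRELD2 was -0.205 with no replicate block, -0.061 with the run block, -0.089 without complex and mixed tumors, -0.059 without low RNA integrity and -0.074 to 0.120 over omissions.

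Over all gene rows, benign against normal gave 2002 calls as reported, 27 with the RNA integrity covariate, 0 with the adipocyte covariate, 1 without high-muscle libraries, 788 with the run block, 987 without complex and mixed tumors and 256 without low RNA integrity. Malignant against normal gave 1227 calls, 759 without atypias and carcinomas in situ, 2151 with DESeq2, 103 with RNA integrity, 76 with the adipocyte covariate, 6 without high-muscle libraries and 33 without low RNA integrity. Malignant against benign gave 153 calls, 362 with no replicate block, 531 with DESeq2, 72 without high-muscle libraries, 301 with dog as a random effect, 27 without atypias and carcinomas in situ, 34 without low RNA integrity, and 0 with the run block or without complex and mixed tumors. Leaving out 1 dog gave 977 (dog 13) to 3117 (dog 47) calls in benign and 288 (dog 13) to 1429 in malignant against normal libraries. Of the histology contrasts, carcinomas against lobular hyperplasias gave 15 calls, 859 with no replicate block and 312 with DESeq2, complex adenomas 90, 693 and 328, adenomas 10, 112 and 261, and complex adenomas against adenomas 8, 48 and 132. Gene reads of 6.09 to 68.4 M per library limit the precision.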
